A study of Homo sapiens with 2 samples.

Results

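The 62 MDAMB468 cells with the largest share of vimentin (VIM) transcripts were described here, out of 1683 deposited cell barcodes and 306 from MDAMB468. They were chosen by a measured value: among MDAMB468 barcodes with at least 5000 unique molecular identifiers (UMIs, counts of transcript molecules), each cell was scored by VIM UMIs over its total UMIs, and the top 30% were taken. Of 212 barcodes that deep, 4 were left out because they differed by 1 base from an MDAMB468 barcode with at least 5 times their UMIs. The remaining 208 gave 62 vimentin-high cells and 146 other cells, against which they were compared. The series holds 2 human cell lines, both labelled triple negative breast cancer, MDAMB468 and CAL51, each with 1 Drop-seq library of polyadenylated RNA read at the 3′ end. Both lines are established tumour lines, and no treatment, genotype or time is given in the labels. Drop-seq lyses single cells in oil droplets with a barcoded bead. All comparisons are therefore between cells of 1 library, no test across samples was possible, and the 95% intervals cover counting error only.

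Vimentin is the type III intermediate filament protein of mesenchymal cells such as fibroblasts. Epithelial cells build their intermediate filaments from keratins instead, with KRT8, KRT18, KRT19 and KRT7 in simple and luminal epithelium and KRT5, KRT14 and KRT17 in basal layers. In an epithelial-mesenchymal transition, cells are known to gain vimentin and lose E-cadherin (CDH1) and other junction proteins under transcription factors such as ZEB1 and SNAI2. Basal-like breast cancers can carry vimentin beside keratins without that full programme. The comparison asks whether epithelial and basal genes were lower in the MDAMB468 cells with the most vimentin. In short, the epithelial list was level, most basal genes were higher, and the lower genes included both calprotectin subunits and other antimicrobial or secretory genes.

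The VIM values that set the groups are given as a description. The vimentin-high cells held 1142 VIM UMIs and the other cells 435, which is 643 and 129 VIM counts per 1000000 UMIs (CPM) over the summed cells. Single vimentin-high cells ran from 363 CPM over a median of 569 CPM to 3790 CPM, and the others had a median of 88.5 CPM. The last 3 cells inside the threshold had 381, 377 and 363 CPM, and the first 3 outside had 357, 355 and 352 CPM. In 49 of the other cells no VIM UMI was counted. The group is a range of a continuous value, not a cell type: the counting interval of 129 cells, 36 of them vimentin-high, held the threshold. A vimentin-high cell had between 2 and 92 VIM UMIs, and 4 of these cells had only 2 or 3. In all values below, VIM was left out of the genes and of the totals.

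**Figure D1:**
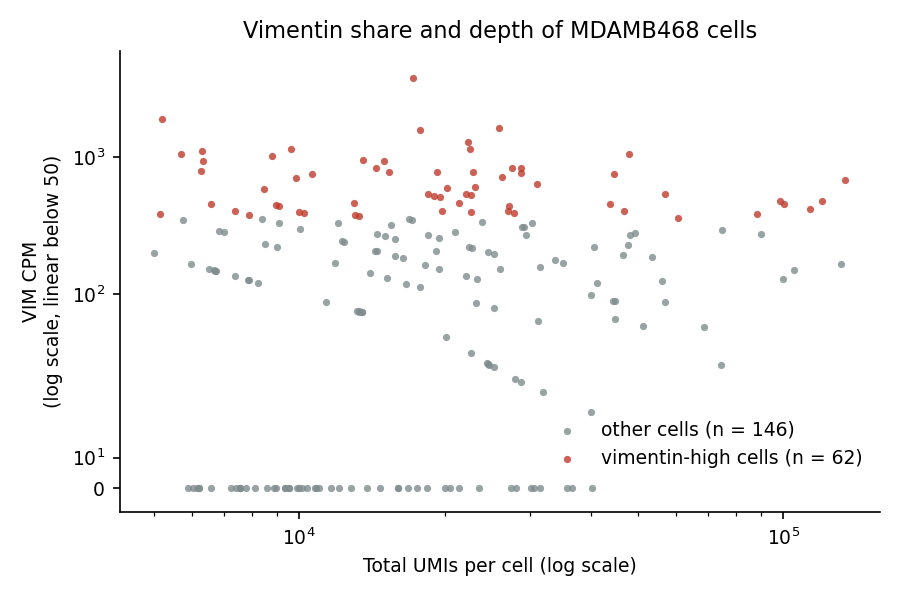
VIM level in CPM (y axis, log scale, linear below 50) against total UMIs (x axis, log scale) in each of 208 MDAMB468 cells, with vimentin-high cells in red and the others in grey. The vimentin-high cells lie at all depths between 5146 and 134213 UMIs, and the 49 cells with no VIM UMI lie at or below 40302 UMIs.

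Medians of depth and RNA quality lay close together in both groups. The vimentin-high cells had a median of 19608 UMIs (range 5146 to 134213) and the other cells 16718 (range 5011 to 131840). Cells with no VIM UMI were shallower, with a median of 10788 UMIs. At 5000 UMIs per cell, vimentin-high cells had a median of 2235 detected genes and other cells 2216. Mitochondrial genes took 5.86% and 5.78% of UMIs and ribosomal protein genes 16.8% in both, as medians, with 1 vimentin-high cell at 4.74% for ribosomal protein genes. The 12-base barcodes of 11 vimentin-high and 20 other cells were also present in the CAL51 library. These were deep cells, with a median of 88387 UMIs in the vimentin-high and 52349 in the other group, and they held 51.4% and 37.5% of the UMIs of their groups. The 12 genes that mark CAL51, among them GSTP1, VCAN and APOE, summed to 7 UMIs in the vimentin-high and 11 in the other cells. Defining immune genes such as PTPRC and CD3E summed to 3 and 7 UMIs. Fibroblast genes summed to 41 and 24 UMIs, of which FAP gave 27 and 14, while COL1A2 and PDGFRB were at 0; their part in the results was not tested. Without the shared barcodes, the rule chose 53 of 177 cells.

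Few genes stood apart. Of 4066 genes with at least 200 UMIs over both groups, 23 (0.566%) were more than 1.5-fold higher in the vimentin-high cells and 34 (0.836%) more than 1.5-fold lower. With TMM scaling, which shifted the median of all genes by -0.08 on the log2 scale, these counts were 12 and 45. Over the 11335 genes with at least 20 UMIs the median log2 ratio was 0.03, and 54.9% of them were higher. The counts of gene lists below are to be read against these shares. By ratio alone, without the minimum of UMIs, 9 of the 26 genes named by rule that passed 1.5-fold stayed past it in every setting tried: MMP7, IGFBP3, EHF, LY6D, ALDH2, S100A7, S100A8, S100A9 and IFIT1. S100A7 leans on few cells, of which 1 held 41.5% of its UMIs. IFIT1 rests mostly on a different cell of the other group, which held 225 of its 278 UMIs, with 53 UMIs elsewhere. Without that cell, which is described with the interferon genes, 20 of the 34 lower genes still had at least 200 UMIs and were more than 1.5-fold lower. S100A7, at -2.47, and IFIT1, at -1.81, were still past 1.5-fold without it but had fewer than 200 UMIs.

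MMP7 had the highest ratio among the 4066 genes. It encodes matrilysin, a secreted protease of glandular epithelium that is not a mesenchymal marker. Summed MMP7 was 166 CPM in the vimentin-high cells (295 UMIs, interval 148 to 186) and 49.9 CPM in the others (169 UMIs, interval 42.7 to 58.0), a log2 ratio of 1.74 (interval 1.46 to 2.02). Per cell it ran from 0 over a median of 67.9 to 1711 CPM in the vimentin-high cells, and from 0 over a median of 0 to 1266 CPM in the others. The ranges overlapped, and 25 vimentin-high cells had no MMP7 UMI. After thinning every cell to 5000 UMIs, 35.5% of vimentin-high cells (exact interval 23.7% to 48.7%) and 15.1% of the others (9.69% to 21.9%) had MMP7, against 59.7% and 34.2% unthinned. In CAL51, where the gene had no UMI in 1069 cells of a median of 10389 UMIs, the thinned share was 0% (interval up to 0.344%). The log2 ratio was 2.27 without the shared barcodes, and between 1.5 and 2.27 over all settings tried.

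IGFBP3, a secreted binding protein of insulin-like growth factors, was next. It stood at 123 CPM in the vimentin-high and 45.2 CPM in the other cells (219 and 153 UMIs), a log2 ratio of 1.45 (interval 1.14 to 1.76). Thinned shares were 35.5% and 17.1%, and unthinned ones 64.5% and 38.4%. IGFBP3 is also transcribed in CAL51, where 45.8% of thinned cells had it. Its log2 ratio there between cells high and low in VIM was 0.10 (interval -0.01 to 0.20). TGFBI, a secreted matrix protein induced by TGF-beta, and LOXL2, a collagen cross-linking enzyme, were named because of their values. TGFBI gave 50 UMIs in the vimentin-high and 17 in the other cells, a log2 ratio of 2.49 (interval 1.67 to 3.37), and LOXL2 44 and 23 UMIs, a log2 ratio of 1.87 (interval 1.11 to 2.66). Both are low: after thinning, TGFBI was found in 17.7% of vimentin-high and 0.685% of other cells.

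Other genes among the 12 with the highest ratios that kept their sign in every planned setting included SDC2 (syndecan, 0.81 on the log2 scale), CCN2 (0.67), CAVIN1 (0.59) and CAV1 (0.53, inside 1.5-fold). SH3KBP1 (0.57), RHPN2 (0.57), NOC3L (0.55) and PICALM (0.52), which are on none of the lists, were also among the 12 and inside 1.5-fold. SDC2 was inside 1.5-fold, at 0.29, after thinning. CAVIN1 was inside it in several settings, among them 0.58 without the shared barcodes, 0.51 with TMM and 0.33 without the 5% deepest cells. CAV1 and CAVIN1 encode the coat proteins of caveolae. CCN2, or connective tissue growth factor, is a matricellular protein and a textbook target of YAP and TEAD. It stood at 274 CPM in the vimentin-high and 173 CPM in the other cells (487 and 585 UMIs), a log2 ratio of 0.67 (interval 0.49 to 0.84), which was 1.20 without the shared barcodes. It was inside 1.5-fold, at 0.33, with the top 30% taken within 4 depth ranges and, at 0.44, in cells of at least 20000 UMIs. Thinned shares of cells were 58.1% and 42.5%. CCN1, a related YAP target, had a log2 ratio of 0.03 (interval -0.30 to 0.36). BCYRN1, with 0.85, is a short RNA with repeat copies in the genome, so its count is uncertain, and it was at 0.15 after thinning.

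The stretches before the start sites of MMP7 and CCN2 are shown because these genes are among the higher ones and their promoters are known for an AP-1 site and TEAD sites. They come from RefSeq on GRCh38.p14, minus strand, chr11:102530748-102530937 for MMP7 and chr6:131951373-131951562 for CCN2, and end at the base before the start. Capitals mark TGANTCA, the AP-1 motif, in MMP7 and GGAATG, the TEAD motif, in CCN2.
MMP7: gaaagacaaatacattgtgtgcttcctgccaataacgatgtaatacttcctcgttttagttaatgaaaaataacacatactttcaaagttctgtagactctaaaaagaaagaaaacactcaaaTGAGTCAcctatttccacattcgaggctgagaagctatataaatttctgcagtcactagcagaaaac
CCN2: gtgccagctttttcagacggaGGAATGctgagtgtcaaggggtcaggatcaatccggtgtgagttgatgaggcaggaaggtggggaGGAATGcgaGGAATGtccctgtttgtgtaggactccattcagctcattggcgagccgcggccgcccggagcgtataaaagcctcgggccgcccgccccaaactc
The AP-1 match begins 67 bases before the MMP7 start, and the TEAD matches begin 169, 104 and 95 bases before the CCN2 start. Both strands were searched, in windows from 250 bases before to 50 after each start. TGANTCA was found in 7.71% and GGAATG in 14.03% of all 35116 windows. Windows were held for 13 of the 23 higher genes, of which 1 had TGANTCA and 2 had GGAATG, and for 28 of the 34 lower genes, of which 3 and 5 had them. A gene was counted if any of its windows matched, so these counts of genes are not in the unit of the shares of windows. A match describes these letters and says nothing about binding here.

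The epithelial list was level between the groups. Of its 46 genes for adhesion, tight junctions, desmosomes, simple keratins and epithelial transcription factors, 45 had at least 20 UMIs, 27 higher and 18 lower, with a median log2 ratio of 0.04 that was -0.04 with TMM scaling. Their sum was 9959 CPM in the vimentin-high and 9970 CPM in the other cells, a log2 ratio of -0.00 (interval -0.03 to 0.02). Per cell the list took a median of 0.990% of UMIs in vimentin-high cells, 0.974% in other cells with VIM and 0.987% in cells without a VIM UMI. Of the 26 members with at least 200 UMIs, none was more than 1.5-fold higher and 2, CLDN3 and EHF, were lower.

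EPCAM and the simple keratins stayed at high levels in the vimentin-high cells. EPCAM, an epithelial adhesion molecule, was 908 CPM (interval 864 to 954) against 818 CPM (788 to 849) and was found in every vimentin-high cell. Per cell its median was 896 CPM in the vimentin-high and 796 CPM in the other cells. The log2 ratios of the simple keratins were 0.17 for KRT18 (interval 0.05 to 0.28), 0.12 for KRT8 (0.02 to 0.21), 0.04 for KRT19 (-0.02 to 0.10) and -0.03 for KRT7 (-0.12 to 0.05), and that of KRT19 was -0.04 with TMM scaling. CDH1 was sparse, with 59 and 111 UMIs, or 33.2 CPM (interval 25.3 to 42.9) and 32.8 CPM (27.0 to 39.5). At equal depth 9.68% of vimentin-high and 19.2% of other cells had a CDH1 UMI, against 45.2% and 47.3% unthinned, so no order was read from those shares. The log2 ratio of CDH1 was 0.02, but -0.91, from few UMIs, after thinning, -0.42 with every cell given the same weight and -0.50 without the shared barcodes. Whether CDH1 was level was thus not settled. ESRP1, GRHL2 and OVOL2, regulators that hold the epithelial state, had log2 ratios of 0.16, 0.12 and 0.69, the last from few UMIs.

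A few epithelial genes were lower. EHF, an ETS factor of glandular epithelium, was 44.5 CPM in the vimentin-high and 86.6 CPM in the other cells (79 and 293 UMIs), a log2 ratio of -0.96 (interval -1.34 to -0.60). Thinned shares were 17.7% and 32.2%. CLDN3, a tight junction claudin, had 54 and 184 UMIs and a log2 ratio of -0.84 (interval -1.30 to -0.39), with thinned shares of 8.06% and 20.5%. With the top 40% of cells taken, CLDN3 was inside 1.5-fold, at -0.55. CD24, a surface glycoprotein of luminal cells, was below 1.5-fold but well counted: 1081 against 1302 CPM (1918 and 4406 UMIs), a log2 ratio of -0.27 (interval -0.35 to -0.19). MUC1, an apical mucin selected on its values, had 14 and 65 UMIs and a log2 ratio of -1.28 (interval -2.23 to -0.44).

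Most basal genes were higher, not lower. Of 31 basal genes in the files, 24 had at least 20 UMIs, and 19 of these were higher and 5 lower, with a median log2 ratio of 0.34 that was 0.21 among members with at least 200 UMIs and 0.25 without the shared barcodes. Their sum was 5196 CPM against 4496 CPM, a log2 ratio of 0.21 (interval 0.17 to 0.25). Per cell the list took a median of 0.491% of UMIs in vimentin-high cells, 0.433% in other cells with VIM and 0.404% in cells without a VIM UMI. Of 17 members with at least 200 UMIs, 3 were more than 1.5-fold higher, KRT6B, KRT16 and KRT17, and none was more than 1.5-fold lower. The 5 lower members were FOXC1 (log2 ratio -0.27, 112 and 257 UMIs), ID4 (-0.19, 190 and 412 UMIs), TRIM29 (-0.14), KRT23 (-0.06) and KRT14 (-0.02).

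KRT5, the type II keratin of basal cells, was 491 CPM (interval 459 to 525) in the vimentin-high and 362 CPM (342 to 383) in the other cells, a log2 ratio of 0.44. Per cell it ran from 0 over a median of 386 to 1940 CPM in the vimentin-high and from 0 over a median of 298 to 1397 CPM in the other cells. Thinned shares were 83.9% and 68.5%, against 91.9% and 89.0% unthinned, and 0% in CAL51, where KRT5 had no UMI. KRT14, its basal partner, was low in both groups, with 30 and 58 UMIs and a log2 ratio of -0.02 (interval -0.71 to 0.64). EGFR, the growth factor receptor for which MDAMB468 is known, was 552 CPM against 408 CPM, a log2 ratio of 0.44 (interval 0.32 to 0.56). CD44, the hyaluronan receptor, had a log2 ratio of 0.36 (interval 0.21 to 0.50) and CAV1 one of 0.53 (0.32 to 0.74).

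KRT6B, KRT16 and KRT17 are keratins of activated and wounded epithelium. Their log2 ratios were 0.83 (interval 0.45 to 1.20), 0.81 (0.41 to 1.21) and 0.65 (0.32 to 0.98). They were patchy: KRT17 was found in 30 of 62 vimentin-high cells, and in 25.8% of them after thinning against 11.6% of the others. The KRT17 ratio depended on which cells entered. It was 1.21 without 1 other cell that held 59 of the 321 KRT17 UMIs, and -0.09 against the lowest 30% of cells by VIM share. In cells of at least 20000 UMIs the ratios of KRT6B, KRT16 and KRT17 were 0.42, 0.37 and 0.33, and without the shared barcodes they were 1.16, 1.61 and 1.08. KRT16 and KRT17 have near-identical pseudogene copies, and how reads were divided between such copies was not given in the sources used here.

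**Figure D2:**
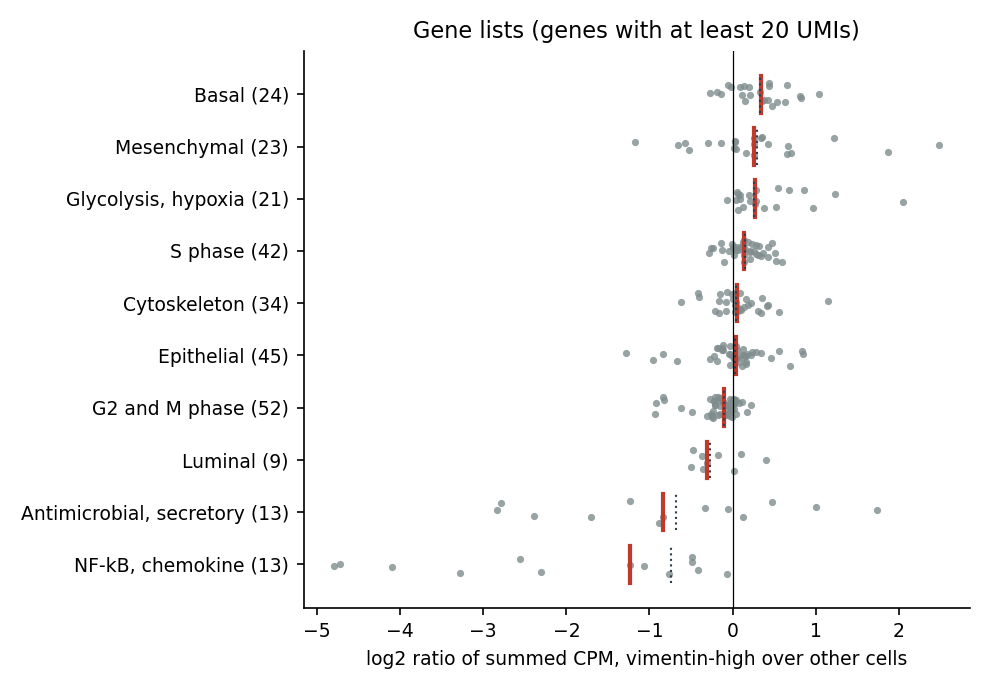
Log2 ratio of summed CPM, vimentin-high over other cells (x axis), for each gene with at least 20 UMIs (points) of 10 lists (y axis, number of genes in brackets); red lines mark list medians and dotted lines the medians without the interferon-high cell. The basal median lies at 0.34, the epithelial at 0.04 and the NF-kB and chemokine median at -1.23, or -0.74 without that cell.

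Mesenchymal genes beyond vimentin were higher in part. Of 46 in the files, 23 had at least 20 UMIs, 17 higher and 6 lower, with a median log2 ratio of 0.25. The sum was 4086 CPM against 3536 CPM, a log2 ratio of 0.21 (interval 0.17 to 0.25). Of the 10 with at least 200 UMIs, CCN2 was more than 1.5-fold higher and none was lower. LGALS1, or galectin, was found in every cell at 1552 CPM against 1388 CPM, a log2 ratio of 0.16 (interval 0.09 to 0.23), and made up a large part of the sum. S100A4, a calcium-binding protein also called FSP1, had a log2 ratio of 0.34 (interval 0.21 to 0.46), which was 0.71, past 1.5-fold, without the shared barcodes. Further log2 ratios were CALD1 0.35 (0.20 to 0.50) and TPM2 0.43 (0.15 to 0.70), the last pair being actin-binding proteins. Defining mesenchymal genes were absent or nearly so: CDH2 had 0 UMIs in both groups, SPARC 0 and 3, FN1 8 and 15 and COL1A1 11 and 9. NT5E, LOX, MMP2 and PLAUR were below 0 with few UMIs.

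Most transcription factors of the epithelial-mesenchymal transition had few or no UMIs. ZEB1, ZEB2 and SNAI2 had 0 UMIs in the vimentin-high and 1 UMI each in the other cells, and SNAI1 had 3 and 6. TWIST1 had 10 and 6 UMIs, few but more in the vimentin-high cells, although these held fewer UMIs in all. TWIST2 was the better counted of that family, with 55 and 103 UMIs and a log2 ratio of 0.03 (interval -0.47 to 0.51). In CAL51, by contrast, 26.5% of thinned cells had ZEB1 and 35.1% had CDH2. Of the 17 regulators, 6 had at least 20 UMIs, with a median log2 ratio of 0.02. Other cytoskeletal genes were level: none of 28 with at least 200 UMIs was more than 1.5-fold higher or lower, and the summed list was 23236 CPM against 23226 CPM. NES, another intermediate filament gene selected on its values, had 43 and 37 UMIs and a log2 ratio of 1.15 (interval 0.48 to 1.82).

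**Figure D3:**
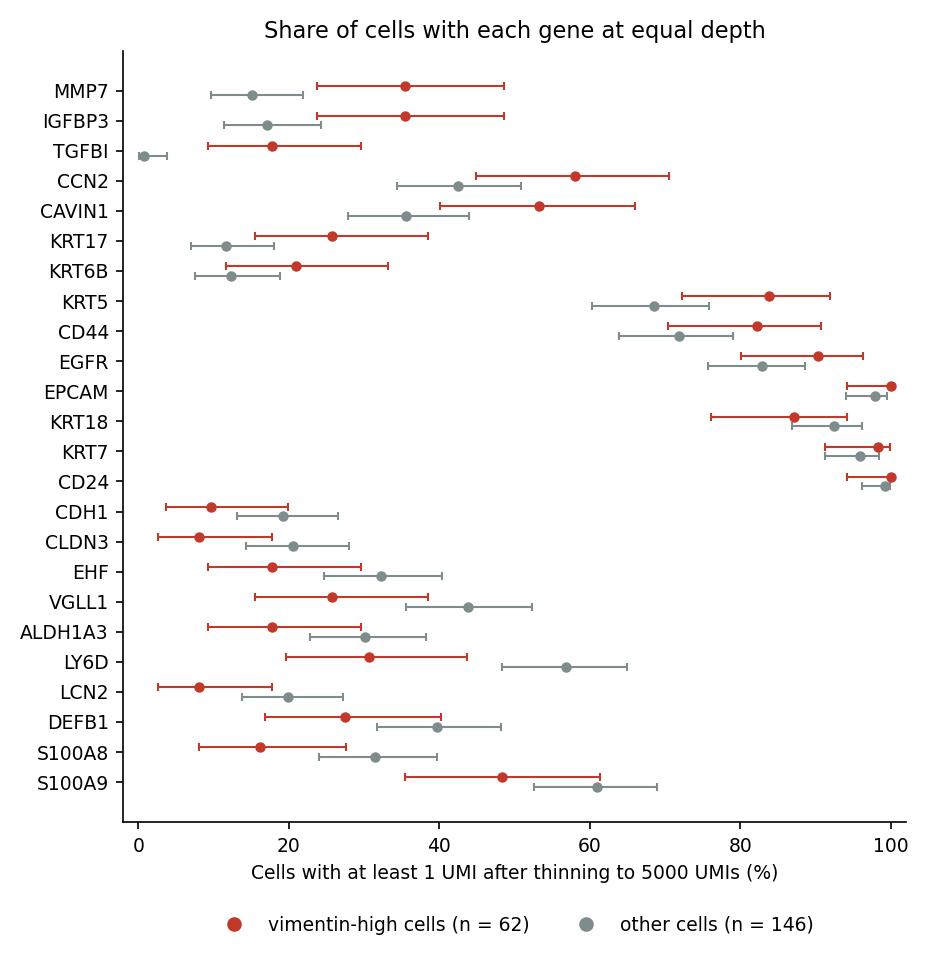
Share of cells with at least 1 UMI after thinning each cell to 5000 UMIs (x axis, percent, with exact 95% intervals of counting error), for 24 genes (y axis), in 62 vimentin-high (red) and 146 other cells (grey). MMP7 reaches 35.5% against 15.1% and LY6D 30.6% against 56.8%, while EPCAM and CD24 are near 100% in both.

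Both calprotectin genes were among the lower genes. Among the 34, S100A8 and S100A9 had lower ratios than all but S100A7 and the interferon genes IFNL1, IFIT2, IFNB1 and IFIT1, which are described below. S100A9 and S100A8 encode its subunits, calcium-binding antimicrobial proteins of inflamed epithelium and neutrophils, and S100A7, or psoriasin, is a related protein. S100A9 was 122 CPM in the vimentin-high cells (216 UMIs, interval 106 to 139) and 395 CPM in the others (1337 UMIs, interval 374 to 417), a log2 ratio of -1.70 (interval -1.91 to -1.49). Per cell it ran from 0 over a median of 97.9 to 636 CPM in the vimentin-high cells and from 0 over a median of 162 to 3193 CPM in the others. No vimentin-high cell reached the highest values of the others, while the lower ranges overlapped. Thinned shares were 48.4% and 61.0%, against 74.2% and 85.6% unthinned, and 0% in CAL51. The difference in the sums was thus larger than that in the shares of cells.

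S100A8 followed the same pattern with 41 and 540 UMIs, a log2 ratio of -2.79 (interval -3.28 to -2.33), and thinned shares of 16.1% and 31.5%. With every cell given the same weight, the log2 ratios were -1.41 for S100A9 and -1.98 for S100A8, and without the shared barcodes they were -1.86 and -2.51. S100A7 had 17 and 231 UMIs, of which 1 cell held 41.5%. Its log2 ratio was -2.83, or -1.99 without that cell and -2.15 without the shared barcodes. The interferon-high cell described below held a further 55 of its 248 UMIs, and a ratio without both of these cells is not given here. Thinned cells with S100A7 were few: 10.2% of cells with no VIM UMI and 4.12% of other cells with VIM. Among vimentin-high cells they were 6.45% of the 31 with the lower and 0% of the 31 with the higher VIM shares. The calprotectin genes and S100A7 lie near one another on chromosome 1. S100A9 is at 153357854 to 153361027, S100A8 at 153390032 to 153391188 and S100A7 at 153457744 to 153460701 (GENCODE 29, GRCh38). S100A4 and S100A14 lie farther along, from 153543613 and 153614255, with log2 ratios of 0.34 and -0.12.

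Across the antimicrobial and secretory list, 13 of 16 genes in the files had at least 20 UMIs, 4 higher and 9 lower, with a median log2 ratio of -0.84, or -0.68 without the interferon-high cell described below. Of 9 members with at least 200 UMIs, MMP7 was more than 1.5-fold higher and 5 were lower: S100A7, S100A8, S100A9, DEFB1 and LCN2. DEFB1, a beta-defensin, had 137 and 484 UMIs and a log2 ratio of -0.89 (interval -1.17 to -0.61), with thinned shares of 27.4% and 39.7%. DEFB1 was inside 1.5-fold, at -0.46, with every cell given the same weight and, at -0.56, without the shared barcodes. LCN2, the iron-binding lipocalin, had 58 and 198 UMIs and a log2 ratio of -0.84 (interval -1.29 to -0.41). SLPI, a protease inhibitor of secretions, was at -0.33 (interval -0.56 to -0.11).

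Several genes outside the epithelial and antimicrobial lists were lower too. LY6D, a surface protein of the Ly6 family, was 106 CPM against 194 CPM (188 and 658 UMIs), a log2 ratio of -0.88 (interval -1.12 to -0.64). Its thinned shares were 30.6% (interval 19.6% to 43.7%) and 56.8% (48.4% to 65.0%), against 61.3% and 85.6% unthinned and 0.0935% in CAL51. ALDH2, an aldehyde dehydrogenase, had a log2 ratio of -1.09 (interval -1.47 to -0.73), GLYATL2, an acyltransferase, -0.87 (-1.20 to -0.55) and VGLL1, a TEAD cofactor, -0.76 (-1.09 to -0.44). In cells of at least 20000 UMIs, GLYATL2 and VGLL1 were inside 1.5-fold, at -0.52 and -0.53. In the luminal list 9 of 13 genes in the files had at least 20 UMIs, 3 higher and 6 lower, with a median of -0.31. None of its 5 members with at least 200 UMIs passed 1.5-fold. ALDH1A3, a marker of luminal progenitors, had 126 and 340 UMIs and a log2 ratio of -0.50 (interval -0.81 to -0.20), and GATA3, the luminal transcription factor, -0.31 (-0.65 to 0.02).

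**Figure D4:**
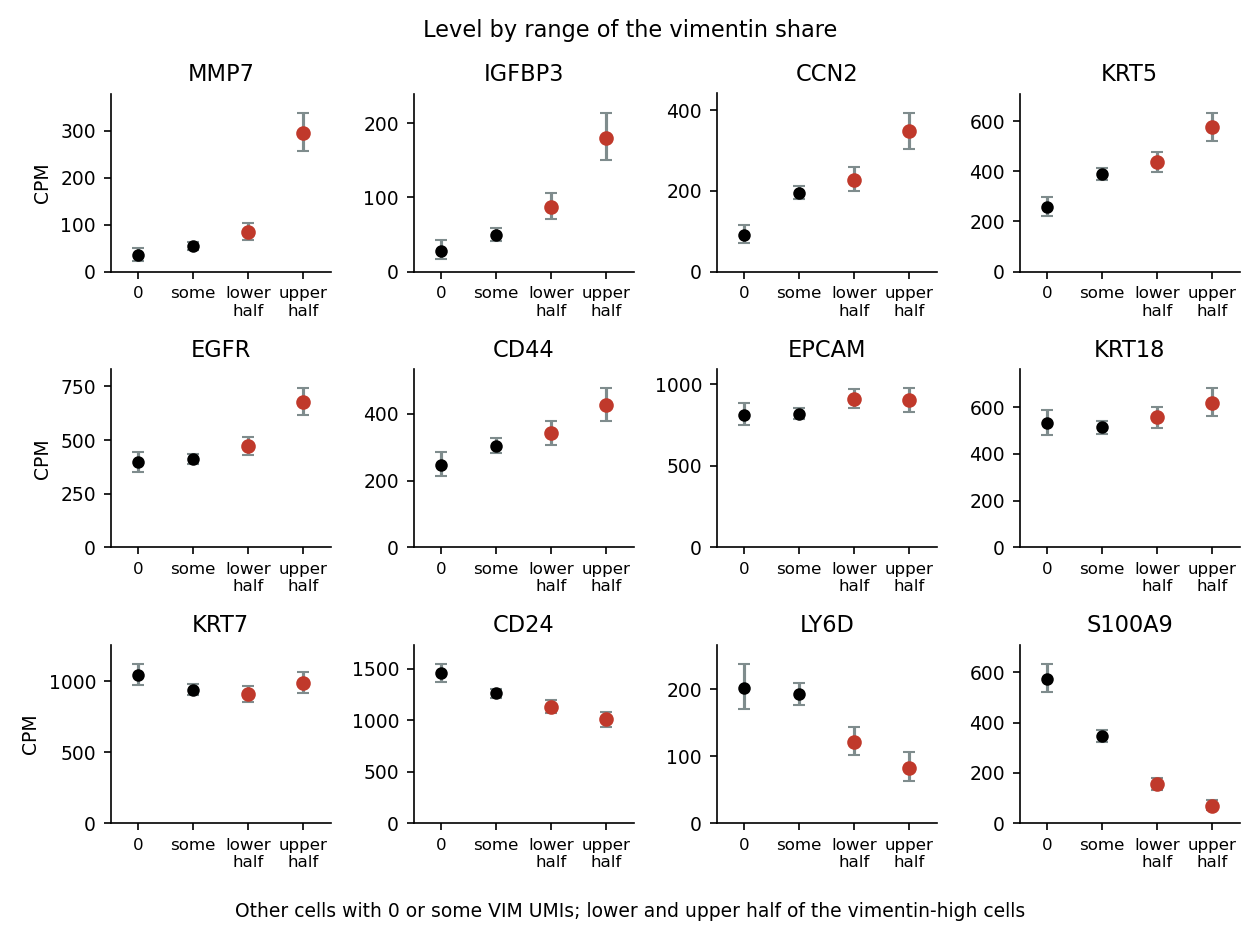
CPM (y axes, starting at 0) of 12 genes in 4 ranges of the VIM share (x axes): other cells with 0 (n = 49) or some VIM UMIs (n = 97), and the lower and the upper part of the vimentin-high cells (red, n = 31 each), with exact 95% intervals of counting error. MMP7 goes from 34.6 to 295 and S100A9 from 575 to 69.1, while EPCAM stays between 814 and 913.

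The summed CPM of several genes followed the order of the VIM share. The ranges were cut on that share. MMP7, CCN2, S100A8, S100A9 and LY6D were named for their difference between the groups, so part of their order follows from the choice. The share of all genes with such an order is not given here. In order from cells with no VIM UMI, over other cells with VIM and the 31 vimentin-high cells with the lower shares, to the 31 with the higher shares, MMP7 was 34.6, 54.1, 83.3 and 295 CPM. Depth was not level, with medians of 10788, 21018, 21384 and 17717 UMIs in that order. KRT5 was 259, 389, 437 and 575 CPM in the same order, and CCN2 was 91.4, 195, 228 and 347 CPM. Intervals of neighbouring ranges overlapped for MMP7 below the threshold (22.4 to 51.1 and 45.6 to 63.7), and for KRT5 (366 to 414 and 398 to 478) and CCN2 (179 to 212 and 200.1 to 258) across it. EGFR was 396, 411, 471 and 677 CPM, with intervals that overlapped between the first and second range and between the second (387 to 436) and the third (431 to 514). S100A9 ran the other way, at 575, 346, 155 and 69.1 CPM, as did S100A8 at 251, 135, 32.4 and 8.64 CPM, CD24 at 1455, 1260, 1128 and 1007 CPM and LY6D at 202, 192, 121 and 82.1 CPM. Intervals overlapped between the 2 ranges of vimentin-high cells for CD24 (1066 to 1193 and 934 to 1084) and LY6D (101 to 144 and 62.2 to 106), and for LY6D also below the threshold (171 to 238 and 176 to 210). EPCAM, at 814, 819, 913 and 902 CPM, and KRT7, at 1044, 942, 909 and 991 CPM, showed no such order, nor did KRT6B, at 45.7, 35.7, 40.7 and 108 CPM. Thinned shares of cells were less ordered than the sums: MMP7 was found in 14.3%, 15.5%, 16.1% and 54.8% of cells, so that its share stood apart in the upper range only. CCN2 was found in 36.7%, 45.4%, 64.5% and 51.6% of thinned cells and LY6D in 44.9%, 62.9%, 22.6% and 38.7%, neither in order.

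MMP7 and S100A9 were counted together in some cells and apart in others. At 5000 UMIs, 8 vimentin-high cells had both, 14 had MMP7 alone, 22 had S100A9 alone and 18 had neither. Among the other cells the numbers were 9, 13, 80 and 44. More vimentin-high cells had S100A9 than MMP7 at this depth.

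**Figure D5:**
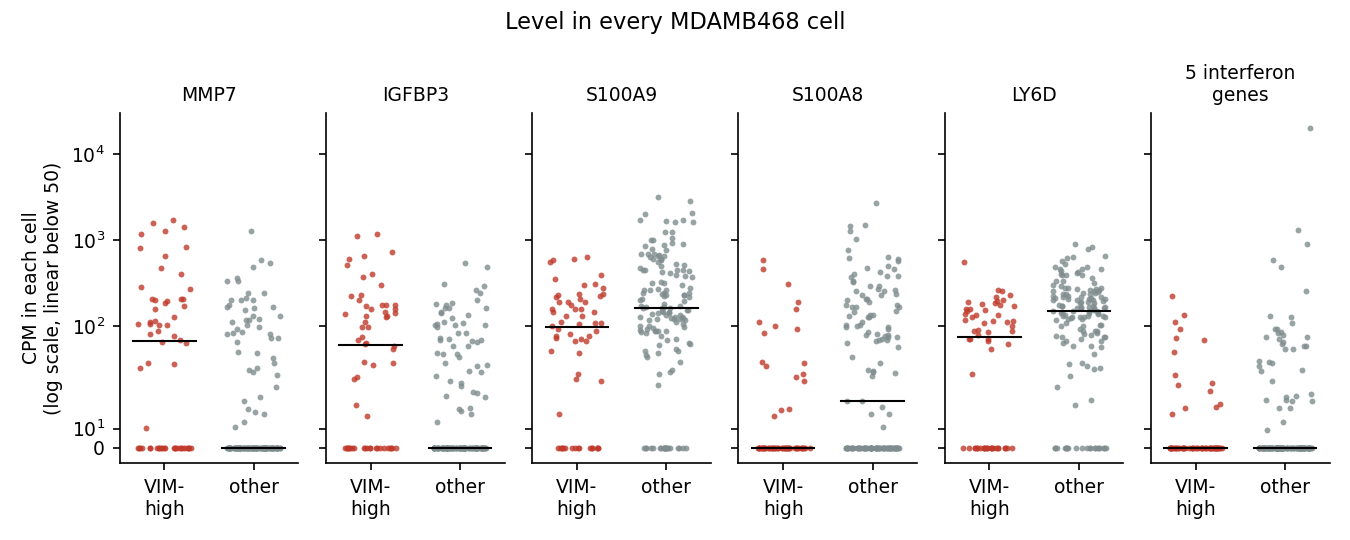
CPM (y axis, log scale, linear below 50) of 5 genes and of the sum of IFNL1, IFNB1, IFIT1, IFIT2 and IFIT3 in each of 62 vimentin-high (red) and 146 other (grey) MDAMB468 cells, with medians as black lines. The ranges overlap for every gene, the highest S100A9 values (up to 3193) are all in other cells, and 1 other cell stands far above the rest for the interferon genes.

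The interferon and chemokine genes need a single cell to be named first. IFNL1 and IFNB1, which encode secreted interferons, and IFIT2, an antiviral response gene, had log2 ratios of -5.33, -4.49 and -4.57. A single cell of the other group, with 68673 UMIs and 4 VIM UMIs, held 299 of 311 IFNL1 UMIs, 210 of 219 IFNB1 UMIs and 488 of 508 IFIT2 UMIs. Its barcode is among the shared ones. The CAL51 barcode of the same sequence had 4658 UMIs and held 50 of the 60 IFNL1 UMIs in the whole CAL51 library and 10 of its 11 IFNB1 UMIs. How the shared barcode arose was not tested. This cell also held 225 of 278 IFIT1 UMIs. Without this cell the log2 ratio of IFNL1 was -0.10, that of IFIT2 1.19 and that of IFIT1 -1.81, all from few UMIs. The stress gene PPP1R15A, a phosphatase subunit, went from -1.50 to -0.02, and to -0.39 without all shared barcodes. Without the cell, 4015 genes had at least 200 UMIs. Of these, 19 were more than 1.5-fold higher and 22 lower, of which 19 and 20 were among the 23 and 34.

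Of 21 interferon response genes with at least 20 UMIs, 2 were higher and 19 lower, with a median of -0.65, or -0.30 without that cell. The median over cells of the summed list was 1226 CPM in the vimentin-high and 1221 CPM in the other cells. Genes of class I antigen presentation were level, with a median log2 ratio of -0.03 over 12 genes. With that cell kept, all 13 counted genes of the NF-kB and chemokine list were lower, with a median of -1.23, or -0.74 without the cell. Most of these genes had few UMIs. Of the 2 with at least 200 UMIs, 1, NFKBIA, was more than 1.5-fold lower. CCL5 had 97 of its 103 UMIs in that cell. Their sum was 179 CPM against 387 CPM, or 303 CPM without it. NFKBIA, the inhibitor that NF-kB itself induces, had 130 and 422 UMIs and a log2 ratio of -0.77 (interval -1.06 to -0.48), or -0.56 without the cell, which is inside 1.5-fold. CXCL3, a neutrophil chemokine, had 4 and 130 UMIs, found in 6.45% and 13.7% of cells unthinned.

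Cell cycle genes differed by small ratios whose size moved with the setting. Of 42 S phase genes, 34 were higher, with a median log2 ratio of 0.14 that was 0.01 with every cell given the same weight. Of 52 genes of G2 and M phase, 40 were lower and 12 higher, with a median of -0.10. That median was -0.31 with every cell given the same weight, -0.30 after thinning, -0.32 without the shared barcodes and 0.01 with the top 20% of cells. PSRC1, a spindle protein with 53 and 180 UMIs, was the single member more than 1.5-fold lower, at -0.83 (interval -1.30 to -0.38). MKI67, the proliferation marker, was 353 CPM against 348 CPM, a log2 ratio of 0.02 (interval -0.12 to 0.16). The upper quartile of the G2 and M share per cell was 0.933% of UMIs in vimentin-high and 1.30% in other cells. In the cells below the median of that share, 9 genes were more than 1.5-fold higher and 25 lower, among the genes that still had at least 200 UMIs there. The part of the cell cycle in the other differences was not tested.

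Most glycolysis and hypoxia genes were higher, but none of the 10 with at least 200 UMIs passed 1.5-fold. Of 21 with at least 20 UMIs, 20 were higher and 1, TPI1, was lower, with a median log2 ratio of 0.27. Their sum was 4505 CPM against 3976 CPM, a log2 ratio of 0.18 (interval 0.14 to 0.22). DDIT4, a stress-induced inhibitor of mTORC1, had a log2 ratio of 0.54 (interval 0.28 to 0.80) and SLC2A1, the glucose transporter GLUT1, 0.68 (0.17 to 1.18) from 63 and 75 UMIs, which is past 1.5-fold below that minimum. SLC2A1 was at 1.20 without the shared barcodes and 0.31 after thinning. CA9, a carbonic anhydrase that hypoxia induces, was selected on its values, with 26 and 12 UMIs and a log2 ratio of 2.05 (interval 1.01 to 3.17). ANXA1, a phospholipid-binding annexin, led the annexin and S100 list at 0.48 (interval 0.33 to 0.63), while that list's median was 0.08.

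The same rule was applied to CAL51, leaving out shared barcodes, to set values side by side. It chose 321 of 1069 cells, with a threshold of 382 CPM. The basal list had a median log2 ratio of 0.26 over 15 genes there, the mesenchymal list 0.09 over 34 and the epithelial list -0.03 over 32. CAV1 was higher in the cells high in VIM of both lines, with 0.63 in CAL51 (interval 0.51 to 0.75), and so were CD44, with 1.07 (0.87 to 1.26), and DDIT4, with 0.54 (0.39 to 0.68). CCN2 was -0.19 in CAL51 (interval -0.30 to -0.09) and CD24 was 0.39 (0.29 to 0.49), the opposite signs to those in MDAMB468. MMP7, KRT5, S100A8 and S100A9 had no UMI in CAL51 and could not be compared. Of 3830 genes counted well enough in both lines, none was past 1.5-fold in opposite directions. In MDAMB468 only 0.566% and 0.836% of 4066 genes were past it at all, so this count says little on whether the lines were alike. The differences between the lines were not tested.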

How the data were processed

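Single-cell 3′ RNA libraries of MDAMB468 and CAL51, 1 each, were deposited as 1 table of unnormalised UMI counts, genes by barcodes. Per the submitters' processing notes the authors used STARsolo. Genome build, annotation, barcode selection and use of strand: not given in the sources used here, which leaves genes with close copies or antisense partners uncertain. No deposited barcode had under 2501 UMIs. The prefix of each barcode gave its line. Symbols were held for 30730 of 30796 identifiers, and GENCODE release 29 (GRCh38) gave positions for 29416.

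The members, gene lists and tests were chosen with earlier results of these data known. VIM UMIs were removed, counts were summed over the 62 and the 146 cells (1775926 and 3385198 UMIs) and scaled to 1000000 UMIs, and their log2 ratio was taken. Intervals are exact: Poisson for sums, conditional on the total for ratios, and Clopper-Pearson for shares. PCR copies are collapsed by UMI, and the intervals cover counting error only. Cells of 1 library are not replicates, so no p-value was computed. A gene was counted as higher or lower past 1.5-fold with at least 200 UMIs, and list medians used members with at least 20 UMIs. Ratios of genes with few UMIs have 0.5 UMIs in place of 0. No doublet caller was run. Genes are named by rule: the 12 highest and 12 lowest ratios with at least 300 UMIs and 1 sign in every planned setting, the 2 highest and 2 lowest of each list with at least 100 UMIs, and 17 fixed genes; others were named on their values or stand for their list. The lists also covered immediate early genes (median log2 ratio -0.04), heat shock and stress (-0.12), sterol synthesis (0.09) and endothelial genes (56 and 43 UMIs in all, mostly KDR). The ratio code was tested on simulated data. Promoter windows are from RefSeq. Python 3.11.15 was used with scipy 1.17.1, numpy 2.4.6, matplotlib 3.10.9 and pandas 2.3.3, and R 4.3.3 with edgeR 4.0.16 for TMM factors only.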

Additional observations from a re-analysis of the deposited data

How the results depend on the processing

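The 23 higher genes became 56 with every cell given the same weight, 5 with cells thinned to 5000 UMIs, 15 without shared barcodes, 12 with TMM, 796 with a minimum of 20 UMIs, 9 in cells below the median G2 and M share and 15 without the 5% deepest cells. The 34 lower genes became 69 with equal weight, 6 thinned, 55 with the top 20%, 699 with a minimum of 20 UMIs, 21 without the 5% deepest cells and 22 without the interferon-high cell, a setting chosen after seeing the data. The genes tested were not the same in all settings. With equal weight, TMM or the top 20% they were the same 4066. A minimum of 20 UMIs tested 11335 genes, and 4015 were left without the interferon-high cell. Settings that drop cells or UMIs, such as thinning, left fewer genes at 200 UMIs, so those counts are not shares of the same genes. The epithelial and cytoskeleton medians moved by less than 0.1 on the log2 scale in every setting run. The basal median of 0.34 was 0.21 with a minimum of 200 UMIs. The mesenchymal median of 0.25 was 0.14 with the top 30% taken within each of 4 depth ranges, 0.13 with at least 10000 UMIs and 0.42 against the lowest 30%. The S phase median of 0.14 was 0.0063 with equal weight, 0.0266 thinned and -0.0366 against the lowest 30%. The G2 and M median of -0.10 was -0.31 with equal weight, -0.30 thinned, 0.0074 with the top 20% and -0.32 without shared barcodes. The ratio of median depths, 1.17, was 1.03 with the 4 depth ranges, 0.998 with at least 10000 UMIs, 0.877 with at least 20000, 1.38 against the lowest 30% and 0.926 in cells below the median G2 and M share. KRT17 turned to -0.0875 against the lowest 30%, and IFIT2 to 1.40 without the 5% deepest cells and 1.19 without the interferon-high cell, which held most of its UMIs. The other causes were not tested. Of 1616 values of the 101 genes named by rule, 1416 kept within the counting interval of the reported value. In all, 144 values of 40 of these genes had the other sign, 3 of them of genes past 1.5-fold. No paired analysis was possible because each line has 1 library. The 5 deepest vimentin-high cells held 31.9% of their group's UMIs, so sums lean on few cells.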
